A study of Mus musculus with 130 samples.

Results

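Oxidative phosphorylation is the work of 5 protein complexes of the inner mitochondrial membrane, and most of their subunits are encoded in the nucleus. The genes described here are the 114 of 36134 annotated mouse genes whose symbol follows the naming pattern of these subunits: Nduf (complex I), Sdha to Sdhd (complex II), Uqcr (complex III), Cox4 to Cox8 (complex IV) and Atp5 (complex V). They comprise 78 subunits, 8 assembly factors of complex I, 8 subunit isoforms known mainly from other tissues, and 20 copies and pseudogenes. The pattern misses subunits with other names, such as Cyc1 of complex III, which is given with the electron carriers.

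RNA was measured in 130 single embryos at the 2-cell stage with Smart-seq2, which copies whole messages from an oligo-dT primer, so each value belongs to 1 entire embryo. All embryos were B6129F1 zygotes isolated 5 hours post fertilization (hpf), then cultured in KSOM medium without an oil cover. Starting at 6 hpf, 80 embryos were kept in 10 µM SR1848, a small molecule used to inhibit the orphan nuclear receptor Nr5a2 (LRH-1), and 50 in the solvent alone, 0.1% DMSO. The series is about Nr5a2 in the embryo's first wave of transcription, and the comparison here asks how the respiratory genes stand in treated against solvent embryos. The study's text lists 56 controls, of which the other 6 were not analysed here. No label tells which embryos shared a mother, a culture drop or a library plate, so p-values rest on the spread among these embryos, which may be technical in part. In a whole embryo, fewer cells and less RNA per cell cannot be told apart. A CPM value (count scaled to library size, here with TMM factors) is a level relative to the embryo's other messages, not an amount.

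Complex I takes electrons from NADH and complex II from succinate. Both pass them through ubiquinone to complex III, then through cytochrome c to complex IV, which reduces oxygen. Complexes I, III and IV pump protons, and complex V, the ATP synthase, uses the proton gradient to make ATP. A few core subunits are encoded by mitochondrial DNA and the rest by the genome of the nucleus. The oocyte supplies the mitochondria and a large store of messages to the early mouse embryo, and the cleavage-stage embryo relies on pyruvate oxidation.

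Gene counts summed to 3149849 to 8379481 per DMSO embryo and 2705831 to 7773242 per SR1848 embryo. The median embryo had a count for 16152 genes with DMSO and 15584 with SR1848. Across the 13222 genes tested, pairs of embryos correlated at a median Pearson r of 0.88 in DMSO and 0.81 in SR1848 (log2(CPM + 1), a description), and the highest r of any pair was 0.93. All 9 markers of oocyte and early embryo fixed for the check were detected. Their summed level was 694 to 1622 CPM with DMSO and 1159 to 5099 CPM with SR1848, with 8 called higher and 0 lower (with oocyte scaling, described below, 3 higher and 2 lower). Of 7 sperm markers and 8 cumulus and granulosa markers, 6 in each list had a median of 0 in both groups. The 1 cumulus gene tested, Tnfaip6, was lower with SR1848 (log2 fold change -1.26). Without the filter on low counts 3 of the 8 cumulus and granulosa genes and 3 of 6 sperm genes were called higher. The summed cumulus and granulosa list reached 13.2 CPM in a DMSO embryo and 246 CPM in an SR1848 embryo, and the sperm list 3.81 and 12.1 CPM. Of 7 blood markers, the alpha globin genes Hba-a1 (log2 fold change 2.63) and Hba-a2 (2.37) were higher with SR1848, while the beta globin genes Hbb-bs and Hbb-bt had a median of 0 in both groups. The summed blood list was 6.21 to 135 CPM with DMSO and 59.5 to 676 CPM with SR1848. The part of these other genes in the results below was not tested.

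With SR1848, most nuclear-encoded respiratory genes made up a smaller share of the embryo's message. Of the 91 members with enough counts to test, 58 were lower, 14 were higher and 19 did not pass (edgeR quasi-likelihood test, two-sided, Benjamini-Hochberg adjusted p under 0.05 over 13222 genes). Among all genes tested, 36.5% were called lower and 45.6% higher. The median log2 fold change of the 91 members was -1.02, against 0.24 for all genes. The members spanned -4.23 to 1.95. A fall of at least 2-fold was found for 46 members, where 25.8% of all genes fell that far, and a rise of at least 2-fold for 6, where 28.2% of all genes rose that far. The 23 members not tested were 18 copies and pseudogenes and 5 genes at or near 0 in most embryos (Atp5g2, Cox7b2, Cox8b, Cox8c and Ndufa4l2). Single embryos of the groups overlapped in all but 2 of the members called. In 2 members every SR1848 embryo lay below every DMSO embryo (1.69% of all genes). In 33 members at least 40 of the 80 SR1848 embryos lay below all 50 DMSO embryos (15.1% of all genes), and in 2 members at least 40 lay above all of them (8.55% of all genes).

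**Figure D1:**
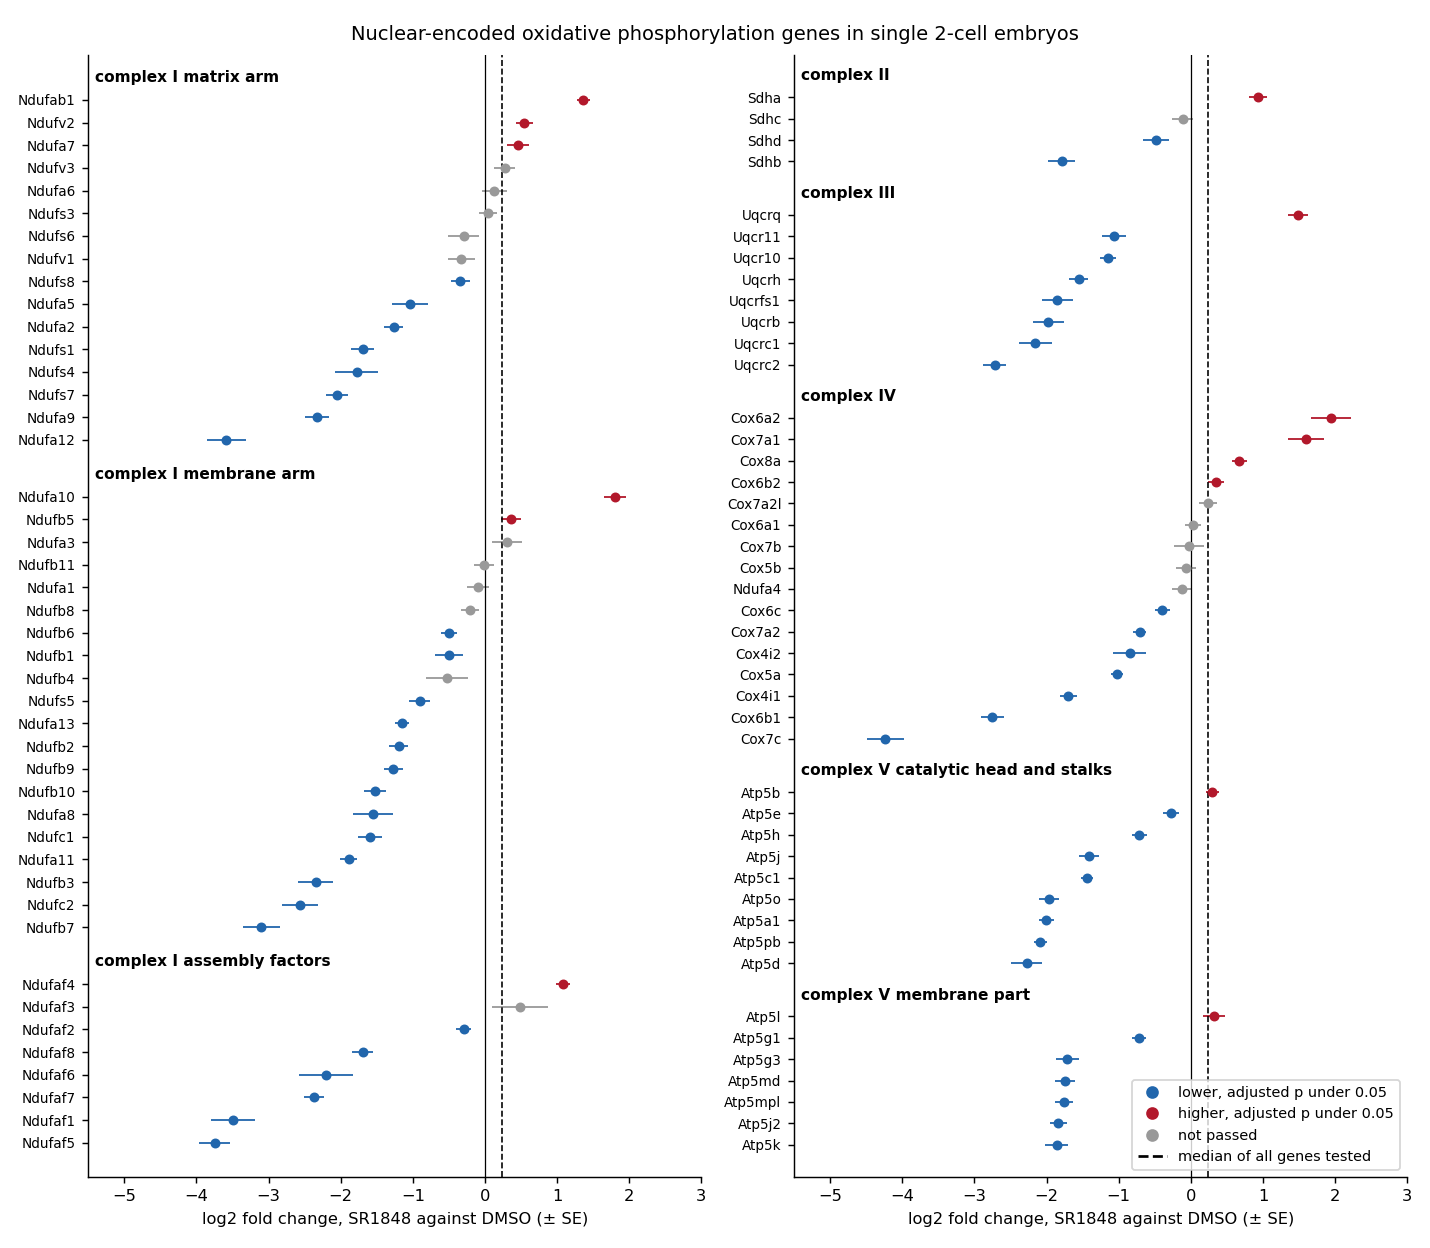
Log2 fold change of tested members, SR1848 against DMSO (points; bars are the standard error), in groups by complex and arm, with copies, pseudogenes and 1 member that did not pass left out; blue is lower and red higher at an adjusted p under 0.05, and the dashed line is the median of all genes tested. Points of complexes III and V lie left of 0 except Uqcrq, Atp5b and Atp5l, and complex IV is spread on both sides. Of the members called higher, Atp5b, Atp5l, Cox6b2, Cox8a, Ndufa7, Ndufb5, Ndufv2 and Sdha change sign when counts are scaled to oocyte transcripts. Some that did not pass, such as Cox6a1 and Cox7a2l, do so too.

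The size of these changes depends on what is held constant between embryos. With TMM factors the median of all genes was 0.24, and scaling to 37 stored oocyte messages moved it to -0.57. The members' median then was -1.81, so it lay below the median of all genes by a similar amount. With oocyte scaling 78 members were lower and 5 higher, where 52.8% of all genes were lower and 18.98% higher. With upper-quartile factors 6 of the 58 lower calls were lost (Atp5e, Cox6c, Ndufaf2, Ndufb1, Ndufs8 and Sdhd). Each of the 19 members that did not pass changed sign or gained a call in at least 1 of the 14 settings tried.

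Complex I, the NADH dehydrogenase, had 27 of 45 tested members lower, 6 higher and 12 not passed, with a median log2 fold change of -0.90. Its matrix arm, which holds the flavin and the iron-sulfur clusters, was split: 8 of 17 members were lower, 3 higher and 6 did not pass (median -0.33). Ndufa9, an accessory subunit near the ubiquinone site, ran from 15.5 to 121 CPM in DMSO embryos (median 48.8) and from 0.889 to 31.6 CPM in SR1848 embryos (median 8.697). It was lower in all but the upper tail of the treated embryos, with 65 of 80 below every DMSO embryo (log2 fold change -2.33 ± 0.16 SE, adjusted p = 2.82e-28). Ndufa2, an accessory subunit of the NADH-oxidizing module, ran from 42.6 to 149 CPM in DMSO embryos (median 82.1) and from 0.7900 to 93.6 CPM in SR1848 embryos (median 31.6). Its groups overlapped in 22 treated embryos, and 58 lay below the DMSO range (log2 fold change -1.27 ± 0.13 SE, adjusted p = 4.42e-16). Ndufs8, a core iron-sulfur subunit and the most abundant of the arm in DMSO embryos, had a median of 88.7 CPM in DMSO and 76.5 CPM in SR1848 embryos. That small fall (log2 fold change -0.34 ± 0.13 SE, adjusted p = 0.011) was not called with upper-quartile factors (adjusted p = 0.354), with detected genes as a covariate (0.0519), among embryos numbered above 40 (0.813) or with the embryo number as a block.

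The matrix arm also held rises. Ndufab1, the mitochondrial acyl carrier protein, which serves fatty acid and lipoate synthesis as well as complex I, ran from 34.4 to 158 CPM in DMSO embryos (median 60.9) and from 87.5 to 309 CPM in SR1848 embryos (median 157). No treated embryo lay below 87.5 CPM, a level above the DMSO median, and 39 of 80 lay above all DMSO embryos (log2 fold change 1.36 ± 0.09 SE, adjusted p = 4.29e-30). Much of this rise lay in retained-intron transcripts, such as Ndufab1-205 (mean 17.4 CPM in DMSO and 39.7 CPM in SR1848 embryos) and Ndufab1-210 (8.01 and 39.7 CPM). The coding Ndufab1-202 rose as well (20.04 and 50.3 CPM), and the coding Ndufab1-206 did not pass. Ndufv2, an iron-sulfur subunit of the NADH-binding tip, was moderately higher (median 30.9 CPM in DMSO and 42.8 CPM in SR1848 embryos; log2 fold change 0.55 ± 0.12 SE, adjusted p = 1.33e-05), and so was Ndufa7, an accessory subunit (median 26.2 CPM in DMSO and 34.3 CPM in SR1848 embryos; log2 fold change 0.46 ± 0.15 SE, adjusted p = 0.0036). Both rises were lost with oocyte scaling, where the log2 fold changes were -0.25 and -0.28. The other 5 lower genes of the arm had log2 fold changes from -3.59 to -1.03, and the 6 that did not pass from -0.33 to 0.27.

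In the membrane arm, which pumps protons, 13 of 20 members were lower, 2 higher and 5 did not pass (median -1.03). Ndufa11, which sits where complex I meets complex III in supercomplexes, ran from 39.7 to 111 CPM in DMSO embryos (median 73.5) and from 1.19 to 56.6 CPM in SR1848 embryos (median 18.5). Nearly the whole treated group lay under the DMSO range (75 of 80; log2 fold change -1.89 ± 0.12 SE, adjusted p = 7.10e-32). Ndufb10 fell less evenly (median 30.7 CPM in DMSO and 9.904 CPM in SR1848 embryos; log2 fold change -1.53 ± 0.15 SE, adjusted p = 1.42e-17), with 14 of 80 below all DMSO embryos. Ndufb2 fell from a median of 50.02 to 19.3 CPM (log2 fold change -1.197 ± 0.13 SE, adjusted p = 1.21e-15). Both are small accessory subunits. Against this trend Ndufa10, a subunit related to nucleoside kinases, ran from 6.34 to 119 CPM in DMSO embryos (median 29.7) and from 33.3 to 410.2 CPM in SR1848 embryos (median 97.2). Every treated embryo was above the DMSO median, 31 were above the whole DMSO range (log2 fold change 1.804 ± 0.15 SE, adjusted p = 4.36e-22), and the rise was called under each of the 14 settings tried. Ndufb5 had a much smaller difference (log2 fold change 0.36 ± 0.14 SE, adjusted p = 0.014) that was not called in 6 of the 14 settings and turned to -0.54 with oocyte scaling. Ndufb11, the most abundant of the arm in DMSO embryos, did not pass (median 87.8 CPM in DMSO and 76.3 CPM in SR1848 embryos; log2 fold change -0.02 ± 0.14 SE, adjusted p = 0.90). Its reads may be shared with the near-identical copy Ndufb11b, which did not pass either. The other 10 lower genes of the arm had log2 fold changes from -3.101 to -0.50, and the other 4 that did not pass from -0.52 to 0.31.

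The 8 complex I assembly factors, which are not part of the finished complex, had 6 lower, 1 higher and 1 not passed (median -1.95). Ndufaf5 (chr2:140170649-140203689, plus strand, mm10), which modifies the core subunit Ndufs7, ran from 19.9 to 105 CPM in DMSO embryos (median 50.02) and from 0 to 15.9 CPM in SR1848 embryos (median 3.12). The groups did not overlap: all 80 treated embryos were below all 50 DMSO embryos, and 7 had no count (13.4-fold lower, log2 fold change -3.75 ± 0.21 SE, adjusted p = 3.25e-35). Ndufaf7, a methyltransferase of the complex I assembly path, fell 5.17-fold, with 71 treated embryos under the DMSO range (median 64.99 CPM in DMSO and 9.902 CPM in SR1848 embryos; log2 fold change -2.37 ± 0.14 SE, adjusted p = 9.97e-34). Ndufaf1, of lower level, ran from 1.41 to 78.5 CPM in DMSO embryos (median 22.9) and from 0 to 11.4 CPM in SR1848 embryos (median 0.894), and 23 of 80 treated embryos had no count. Ndufaf4, which acts early in assembly together with Ndufaf3 and was the most abundant factor, rose instead: it ran from 68.4 to 201 CPM in DMSO embryos (median 118) and from 50.3 to 555 CPM in SR1848 embryos (median 237), with 52 treated embryos above the DMSO range (log2 fold change 1.09 ± 0.10 SE, adjusted p = 2.83e-20). Its rise was not called with oocyte scaling (log2 fold change 0.12). The most abundant Ndufaf4 transcript, Ndufaf4-202, is annotated as non-coding and went from a mean of 75.9 to 156 CPM. The coding Ndufaf4-201 went from 32.4 to 68.3 CPM. The other 3 lower factors had log2 fold changes from -2.204 to -0.30. Of the members described with values, Ndufaf1, Sdhb, Sdhc, Sdhd, Cox7c, Uqcr10, both tested copies and the transcripts of Ndufs1 lie outside the naming rule and were chosen after their values were seen.

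Complex II is also the succinate dehydrogenase of the citric acid cycle, and its 4 subunits went apart: 2 lower, 1 higher and 1 not passed. Sdha, the flavoprotein that binds succinate, ran from 5.75 to 84.9 CPM in DMSO embryos (median 40.3) and from 16.4 to 230.1 CPM in SR1848 embryos (median 78.8). It was higher with SR1848 (log2 fold change 0.94 ± 0.13 SE, adjusted p = 2.52e-11), with 33 of 80 embryos above the DMSO range, except with oocyte scaling, where its log2 fold change was -0.03. Sdhb, the iron-sulfur subunit bound to Sdha, had a median of 20.3 CPM in DMSO and 5.97 CPM in SR1848 embryos (log2 fold change -1.79 ± 0.18 SE, adjusted p = 1.17e-16). The difference between these partners shows per length as well: the median of Sdha went from 26.9 to 46.97 TPM and that of Sdhb from 30.3 to 8.31 TPM (level per transcript length). The membrane anchor Sdhd was slightly lower (log2 fold change -0.48 ± 0.18 SE, adjusted p = 0.011), a call lost with upper-quartile factors and in either subset of embryo numbers, and Sdhc did not pass (log2 fold change -0.11 ± 0.15 SE, adjusted p = 0.48).

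Complex III, the cytochrome bc1 complex, had 7 of 8 members lower and 1 higher, and its median was -1.702. Uqcrc2, a core subunit on the matrix side, ran from 19.5 to 107 CPM in DMSO embryos (median 66.8) and from 0.218 to 40.1 CPM in SR1848 embryos (median 8.38). In 70 of 80 treated embryos it was below every DMSO embryo (6.58-fold lower, log2 fold change -2.72 ± 0.16 SE, adjusted p = 7.77e-34). Uqcrfs1, the Rieske iron-sulfur protein and the most abundant member of the complex in DMSO embryos, ran from 66.9 to 308 CPM in DMSO embryos (median 111) and from 0 to 150.3 CPM in SR1848 embryos (median 30.95). Its treated embryos were widely spread, with 3 at 0 and 68 under the DMSO range (log2 fold change -1.85 ± 0.21 SE, adjusted p = 1.55e-14). Uqcrh, the hinge protein, fell 2.94-fold (log2 fold change -1.56 ± 0.14 SE, adjusted p = 6.69e-21). The other 4 lower genes of the complex had log2 fold changes from -2.15 to -1.07. The exception was Uqcrq, a small subunit that contacts cytochrome b: it ran from 11.2 to 52.1 CPM in DMSO embryos (median 26.2) and from 5.57 to 156 CPM in SR1848 embryos (median 70.01). It was higher in 67 of 80 treated embryos than in the median DMSO embryo, and 54 were above the DMSO range (log2 fold change 1.48 ± 0.14 SE, adjusted p = 2.04e-18). In DMSO embryos Uqcrq (101 TPM) stood below Uqcr10 (253), Uqcrfs1 (147) and Uqcrh (120.3) in median level per length, and with SR1848 it stood above them (232 against 99.7, 32.9 and 36.8 TPM).

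Complex IV, cytochrome c oxidase, was the most mixed, with 7 of 16 tested members lower, 4 higher and 5 not passed. Its median was -0.09 and turned to 0.13 with upper-quartile factors. It held the largest fall among the members tested, in Cox7c, a small membrane subunit, which ran from 10.1 to 69.5 CPM in DMSO embryos (median 29.4) and from 0 to 10.1 CPM in SR1848 embryos (median 1.03). In 79 of 80 treated embryos Cox7c was below every DMSO embryo, and 15 had no count (18.8-fold lower, log2 fold change -4.23 ± 0.25 SE, adjusted p = 2.72e-33). Cox4i1, the main form of the largest nuclear subunit, averaged 180.0 ± 48.1 CPM (SD, n = 50) in DMSO and 55.5 ± 27.6 CPM (SD, n = 80) in SR1848 embryos (log2 fold change -1.696 ± 0.12 SE, adjusted p = 3.11e-28). Cox5a, on the matrix side, averaged 192 ± 56.4 CPM (SD, n = 50) in DMSO and 94.7 ± 33.3 CPM (SD, n = 80) in SR1848 embryos (log2 fold change -1.02 ± 0.08 SE, adjusted p = 2.59e-22). Cox5b, a zinc-binding subunit of the matrix side, did not pass (median 94.8 CPM in DMSO and 75.1 CPM in SR1848 embryos; log2 fold change -0.07 ± 0.14 SE, adjusted p = 0.67), nor did Cox6a1 (median 142 CPM in DMSO and 144 CPM in SR1848 embryos; log2 fold change 0.03 ± 0.11 SE, adjusted p = 0.79). Cox8a, the most abundant subunit of the complex, was higher (median 366 CPM in DMSO and 530.3 CPM in SR1848 embryos; log2 fold change 0.67 ± 0.10 SE, adjusted p = 3.55e-09), except with oocyte scaling, where its log2 fold change was -0.09.

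Several complex IV subunits exist as isoforms of separate genes. In the Cox6b, Cox7a, Cox6a and Cox4i sets the form known from another tissue took a larger median share in treated embryos. In the Cox7b and Cox8 sets the testis forms took a smaller one (1.12% to 0% for Cox7b2 and 0.239% to 0.108% for Cox8c). Cox6b1 is the general form of a subunit facing the intermembrane space, and Cox6b2 is best known from testis. Cox6b1 (chr7:30616861-30626151, minus strand, mm10) ran from 27.2 to 128 CPM in DMSO embryos (median 68.98) and from 0.629 to 31.7 CPM in SR1848 embryos (median 8.61). It was below every DMSO embryo in 78 of 80 treated embryos (log2 fold change -2.75 ± 0.16 SE, adjusted p = 3.19e-34). Cox6b2 (chr7:4751792-4753094, minus strand, mm10) ran from 40.5 to 239 CPM in DMSO embryos (median 127) and from 44.02 to 363 CPM in SR1848 embryos (median 157), so its groups overlapped (log2 fold change 0.35 ± 0.11 SE, adjusted p = 0.0021), and the sign of its change turned with oocyte scaling (-0.59). Per length, Cox6b2 was already the larger part of the pair in DMSO embryos, 47.9% to 84.8% of their summed TPM (median 68.2%). With SR1848 its share was 89.4% to 99.4% (median 95.4%), and the groups did not overlap. A share within an embryo does not depend on how embryos are scaled, but it shows only unequal change of the 2 genes.

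**Figure D2:**
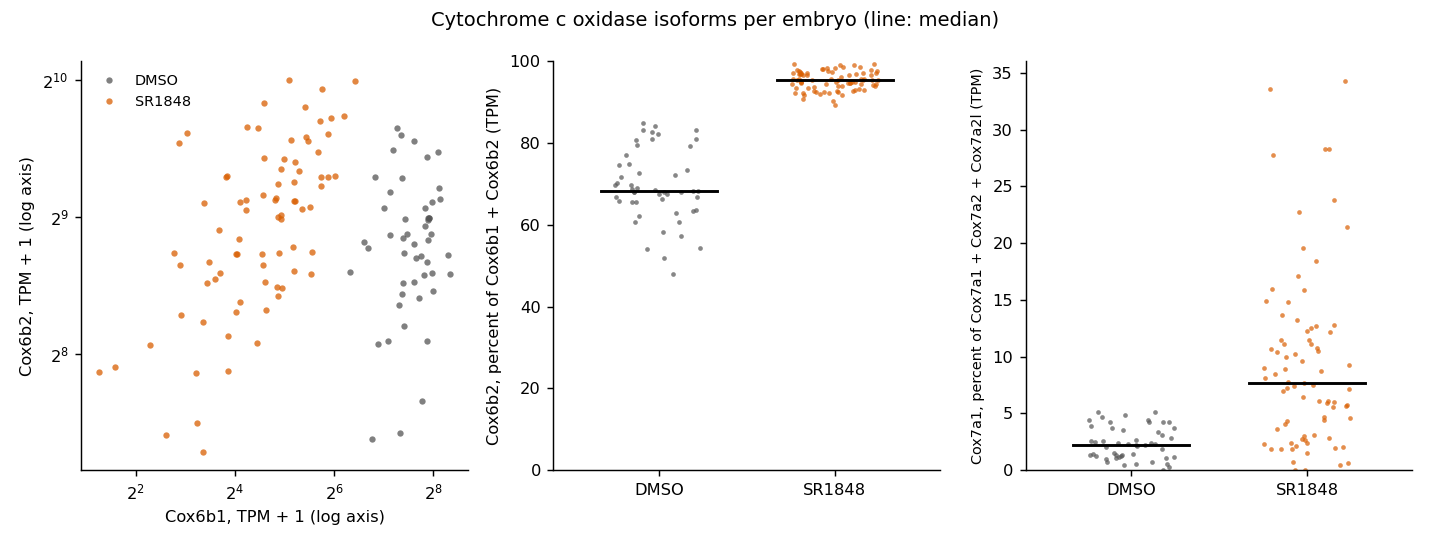
Left: Cox6b1 against Cox6b2 in each embryo (TPM + 1, log axes). Middle and right: Cox6b2 as a percentage of Cox6b1 + Cox6b2, and Cox7a1 as a percentage of its 3-gene set, in TPM per embryo (points; lines are medians), for 50 DMSO and 80 SR1848 embryos. The Cox6b2 share lies between 47.9% and 84.8% with DMSO and from 89.4% upward with SR1848, and in the left panel the groups part along the Cox6b1 axis.

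Cox7a1 and Cox6a2, the forms of heart and skeletal muscle, were rare in DMSO embryos and rose with SR1848. Cox7a1 had a median of 1.94 CPM in DMSO and 5.702 CPM in SR1848 embryos (log2 fold change 1.595 ± 0.25 SE, adjusted p = 6.55e-09), and its share of the Cox7a1, Cox7a2 and Cox7a2l set went from a median of 2.25% to 7.72%, with 54 of 80 treated embryos above the DMSO range. Cox7a2, the general form, fell (median 120.4 CPM in DMSO and 69.9 CPM in SR1848 embryos; log2 fold change -0.71 ± 0.09 SE, adjusted p = 2.07e-11), and Cox7a2l, a supercomplex factor, did not pass (log2 fold change 0.24 ± 0.12 SE, adjusted p = 0.062). Cox7a2l was called higher in 6 of the 14 settings, such as upper-quartile factors (0.48) and the replicate block (0.44), and lower with oocyte scaling (-0.80). Cox6a2 had a median of 0.806 CPM in DMSO and 4.14 CPM in SR1848 embryos (log2 fold change 1.95 ± 0.28 SE, adjusted p = 2.89e-10), yet it still made up only a median of 2.41% of the Cox6a pair per length. Both rises were called under every setting that tested them. The lung isoform Cox4i2 was lower (median 2.27 CPM in DMSO and 1.08 CPM in SR1848 embryos; log2 fold change -0.85 ± 0.23 SE, adjusted p = 4.93e-04), like its general partner Cox4i1, except that its call was lost among embryos numbered above 40. Its median share of the pair per length still went from 1.25% to 2.26%, with 54 of 80 treated embryos above the DMSO median share and 26 below it. The testis isoform Cox7b2 was not tested. It had counts in a part of DMSO embryos (share of the Cox7b pair up to 15.9%, median 1.12%) and none in 78 of 80 treated embryos, while Cox7b itself did not pass (log2 fold change -0.02 ± 0.21 SE, adjusted p = 0.92). Cox8b and Cox8c, of muscle and testis, and Ndufa4l2 had medians under 1 CPM in both groups. Ndufa4, now counted with complex IV, did not pass (log2 fold change -0.12 ± 0.14 SE, adjusted p = 0.43), and Cox6c was slightly lower (log2 fold change -0.39 ± 0.10 SE, adjusted p = 2.55e-04), a call lost with upper-quartile factors and among embryos numbered above 40.

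Complex V, the ATP synthase, had 14 of 16 tested members lower and 2 higher, with a median of -1.73. The 2 rises were lost with RLE factors, with total-count scaling and with oocyte scaling. In the head, alpha and beta subunits alternate in a ring that carries the catalytic sites. The gene of the beta subunit, Atp5b, was the most abundant member of all, and it ran from 261 to 974 CPM in DMSO embryos (median 602) and from 259.9 to 2364 CPM in SR1848 embryos (median 675). The groups overlapped, but several treated embryos lay above the whole DMSO range, such as embryos 57 (1474 CPM) and 71 (1496 CPM). The lowest treated value, 259.9 CPM, was just under the DMSO minimum. The rise of Atp5b in the fit was small (log2 fold change 0.30 ± 0.09 SE, adjusted p = 0.0022). It was not called in 4 of 14 settings and turned to -0.36 with oocyte scaling. The gene of the alpha subunit, Atp5a1, ran from 102 to 315 CPM in DMSO embryos (median 184) and from 3.95 to 138 CPM in SR1848 embryos (median 41.6). Here 79 of 80 treated embryos were below every DMSO embryo (4.003-fold lower, log2 fold change -2.001 ± 0.11 SE, adjusted p = 1.97e-38). Per length, the medians went from 579.6 to 609 TPM for Atp5b and from 132 to 29.1 TPM for Atp5a1, so that messages of the alternating subunits stood further apart with SR1848.

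The tested genes of the stalks that join head and membrane part were all called lower, by unequal amounts. Atp5pb (chr3:105942698-105960099, minus strand, mm10), the b subunit of the peripheral stalk, ran from 99.3 to 349.9 CPM in DMSO embryos (median 175) and from 12.99 to 84.8 CPM in SR1848 embryos (median 40.3). It was the other member whose groups did not overlap (4.24-fold lower, log2 fold change -2.08 ± 0.09 SE, adjusted p = 5.02e-45). Atp5o, which ties that stalk to the head, fell from a median of 64.4 to 14.4 CPM, with 73 treated embryos under the DMSO range (log2 fold change -1.97 ± 0.14 SE, adjusted p = 8.20e-28). Of the 9 genes of head and stalks, 8 were lower. The other 5 lower genes of head and stalks had log2 fold changes from -2.28 to -0.27. The smallest fall of these, in Atp5e, kept its call in 8 of 14 settings. In the membrane part 6 of 7 were lower. Atp5g1, Atp5g2 and Atp5g3 encode the same ring subunit, which turns with the proton flow. Atp5g1, the main form in these embryos, ran from 237 to 647 CPM in DMSO embryos (median 414) and from 58.3 to 546 CPM in SR1848 embryos (median 242) (log2 fold change -0.72 ± 0.09 SE, adjusted p = 1.10e-11). Atp5g3 fell further (median 56.03 CPM in DMSO and 14.9 CPM in SR1848 embryos; log2 fold change -1.71 ± 0.15 SE, adjusted p = 6.84e-20), and its share of the set per length went from a median of 11.1% to 6.01%. The small subunit genes Atp5j2 (log2 fold change -1.84, adjusted p = 5.36e-29), Atp5md (log2 fold change -1.74, adjusted p = 3.26e-24) and Atp5mpl (log2 fold change -1.76, adjusted p = 6.12e-27) fell by similar amounts. Atp5l, the g subunit, passed the test barely (log2 fold change 0.32 ± 0.16 SE, adjusted p = 0.049), was called higher in 3 of the 14 other settings and reversed to -0.52 with oocyte scaling. Its transcripts moved apart, as given below.

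**Figure D3:**
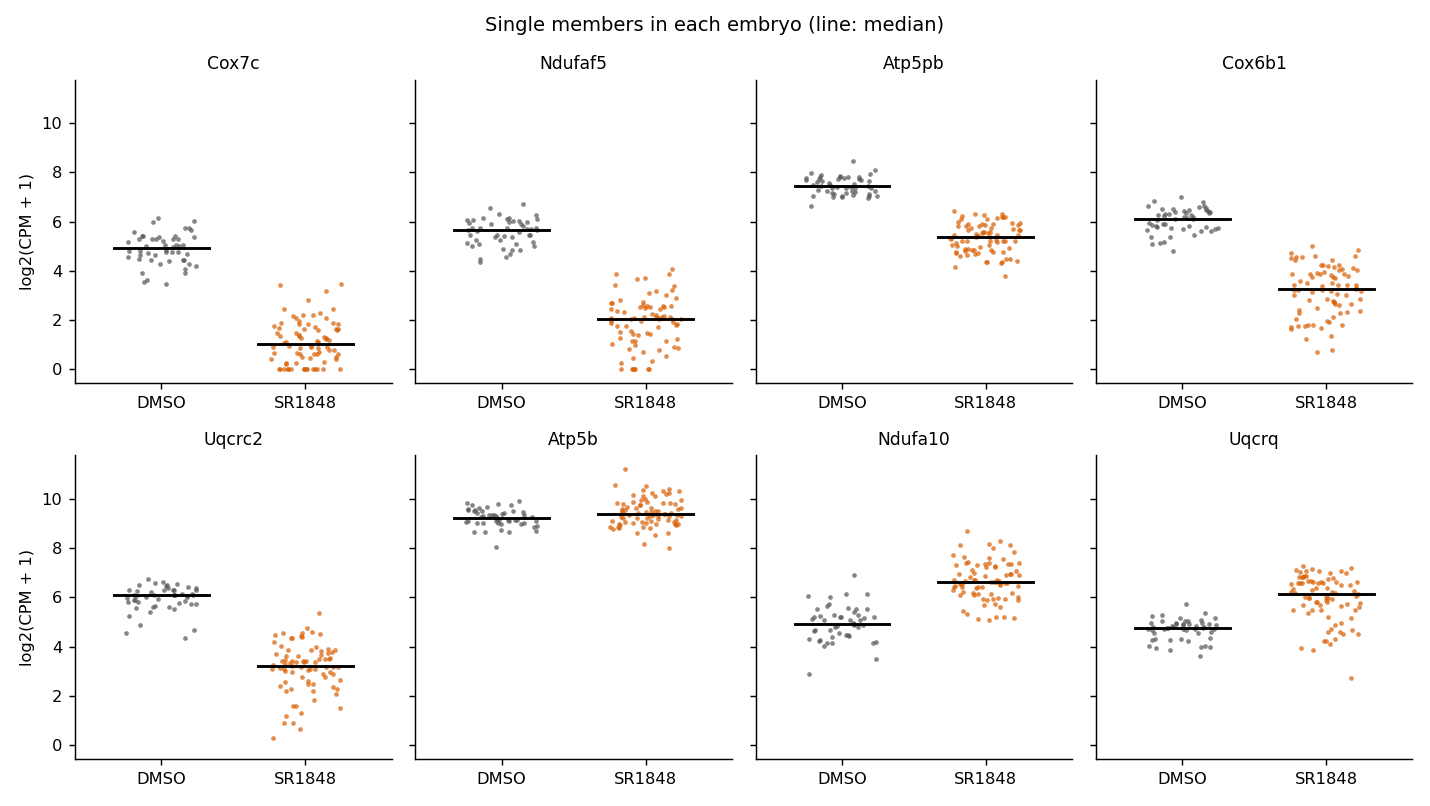
Level of 8 members in each embryo, log2(CPM + 1) (points; lines are medians), for 50 DMSO and 80 SR1848 embryos. The groups are fully apart for Ndufaf5 and Atp5pb and nearly so for Cox7c and Cox6b1. Those of Atp5b overlap, with some treated embryos above the DMSO range, and Ndufa10 and Uqcrq are higher with SR1848 in most embryos.

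Of the 20 copies and pseudogenes, 2 had enough counts to test: Ndufb4c was lower (log2 fold change -1.18) and Ndufb11b did not pass (0.05). The others had medians of at most 3.58 CPM with DMSO and 0.491 CPM with SR1848. Because kallisto divides reads among sequences that match equally well, part of a copy's count may belong to its parent gene, and the reverse.

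Summed over all members in CPM, copies included, the respiratory message was 3940.0 to 7134 (median 5857) in DMSO and 2714 to 6965 (median 4455) in SR1848 embryos, and 22 of 80 treated embryos lay below every DMSO embryo. Atp5b, Atp5g1 and Cox8a carried much of that sum. Without these 3 most abundant genes it was 3046 to 5575 (median 4280.4) in DMSO and 1758 to 3994 (median 2794) in SR1848 embryos, with 54 embryos below the DMSO range. By complex, the ratio of the medians was lowest for complex III (0.458, against 0.594 for complex V), at 240.0 to 532 (median 403) in DMSO and 52.4 to 376 (median 185) in SR1848 embryos, with 64 treated embryos below the DMSO range. Complex V had 1449 to 2975 (median 2141) in DMSO and 838 to 3257 (median 1273) in SR1848 embryos, with 52 below that range. In these complexes the sum was below the DMSO median in 80 and 77 of 80 treated embryos, against 67 for complex I and 56 for complex IV. The ranges of the others overlapped more. Complex I had 986 to 1954 (median 1433) in DMSO and 773 to 1965 (median 1208) in SR1848 embryos, and 9 treated embryos lay below the DMSO range. Complex IV had 1024 to 2138 (median 1649) in DMSO and 669.5 to 2377 (median 1498) in SR1848 embryos, and 5 lay below it. Complex II had 44.5 to 153 (median 93.5) in DMSO and 42.3 to 268 (median 108) in SR1848 embryos, with 2 below and 15 above. These sums are levels relative to TMM-scaled library sizes, not amounts or plain shares of the counts. Other scalings would shift the ratios between the groups, and no test was run on the sums.

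**Figure D4:**
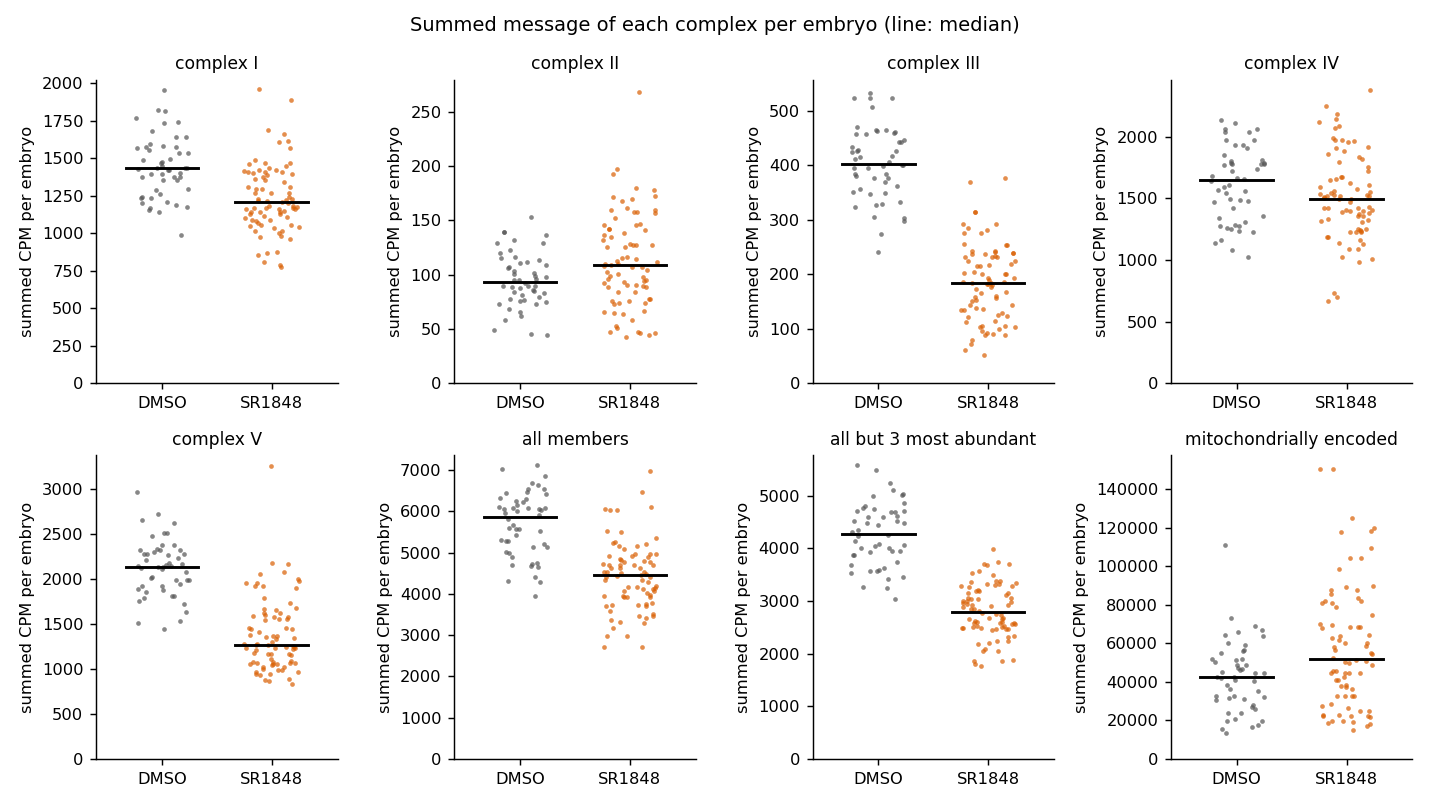
Summed CPM per embryo of each complex, of all members with and without the 3 most abundant, and of the 13 mitochondrially encoded subunits (points; lines are medians), for 50 DMSO and 80 SR1848 embryos. With SR1848 the sum is below the DMSO median in 80 of 80 embryos for complex III, 77 for complex V, 67 for complex I, 56 for complex IV and 29 for complex II, and the mitochondrially encoded sum, whose genes turn lower with oocyte scaling, spreads upward.

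The treated embryos shared the pattern to a variable degree. Counting in each embryo the 58 members called lower, a treated embryo had 47 to 58 of them below the DMSO median (median 55) and 16 to 47 below the whole DMSO range (median 32). These members were chosen on the same comparison, so the counts describe its evenness only. SR1848 embryo 23 stood apart in level, with the highest sum of all members (6965 CPM), of complex V (3257 CPM) and of complex III (376 CPM) among treated embryos. Its Atp5b level of 2364 CPM was the highest of all embryos. It still had Cox7c at 2.12, Cox6b1 at 6.36 and Ndufaf5 at 3.605 CPM, all below the DMSO range, and 18 of the 58 members under it.

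The deposited counts are per transcript, so the isoforms of a member could be followed. Of 180 member transcripts tested in a fit of 25758 transcripts, 90 were lower, 43 higher and 47 did not pass (edgeR), where 35% of all transcripts were lower and 38.5% higher. In the authors' deposited table of their own comparison, 385 member transcripts had an adjusted p, of which 161 were lower and 49 higher, with a median log2 fold change of -0.68. Of all transcripts with an adjusted p there, 26.4% were lower and 19.3% higher in the authors' deposited table. Of the 43 members with at least 2 tested transcripts, 9 had transcripts called in both directions: Atp5g1, Atp5h, Atp5l, Cox4i1, Cox6c, Cox7a2, Ndufaf2, Ndufs1 and Ndufv3. In Cox4i1, Ndufs1 and Atp5l the main coding transcript fell while a transcript with a retained intron rose. Cox4i1-201, the main coding form, went from 178 ± 49.5 to 49.2 ± 26.2 CPM (SD, n = 50 and 80; adjusted p = 5.55e-28), and the retained-intron form Cox4i1-202 from 1.12 ± 0.917 to 2.68 ± 2.53 CPM (SD, n = 50 and 80; adjusted p = 7.68e-06). For Ndufs1, a core iron-sulfur subunit of complex I, Ndufs1-201 went from 18.1 ± 13.1 to 1.66 ± 2.91 CPM (SD, n = 50 and 80; adjusted p = 1.18e-11) and the retained-intron Ndufs1-208 from 1.15 ± 0.942 to 4.02 ± 4.100 CPM (SD, n = 50 and 80; adjusted p = 7.37e-09). Atp5l shows how this touches a gene sum. Its coding transcript Atp5l-201 fell from 11.6 ± 5.61 to 4.603 ± 4.198 CPM (SD, n = 50 and 80; adjusted p = 5.49e-06), and its long retained-intron transcript Atp5l-204 rose from 8.45 ± 4.79 to 19.6 ± 19.03 CPM (SD, n = 50 and 80; adjusted p = 2.07e-07), and these were the 2 transcripts of the gene tested. For Atp5g1, the coding transcripts themselves parted: Atp5g1-202 fell from 378 ± 89.8 to 175 ± 71.3 CPM (SD, n = 50 and 80; adjusted p = 3.47e-20), while the longer Atp5g1-201 rose from 39.4 ± 14.4 to 60.1 ± 54.8 CPM (SD, n = 50 and 80; adjusted p = 0.0011). Where transcripts overlap, kallisto's estimates for them are uncertain, so these values are less firm than the gene sums. The rise of Ndufa10 was found in each of the transcripts tested, among them the coding Ndufa10-201 (from 16.02 ± 10.4 to 61.01 ± 39.6 CPM (SD, n = 50 and 80; adjusted p = 2.67e-20)).

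Nuclear respiratory genes are short, and the short genes of these embryos changed differently from the long ones. The median transcript length was 735 bases for the 91 tested members and 2467 for all genes with a length. With genes split into 5 equal bins by length, the bin of the shortest held genes of up to 1374 bases. Of all genes in it, 40.9% were lower, with a median log2 fold change of -0.02, and in the bin of the longest 28.4% were lower, with a median of 0.50. The 77 members in the bin of the shortest had 52 lower (67.5%) and a median of -1.03. Within a group, levels of member pairs varied together weakly: the median Pearson r over pairs of members was 0.13 across the 50 DMSO embryos and 0.13 across the 80 SR1848 embryos, and near 0 over all pairs of genes. The highest median was that of complex V, 0.26 in DMSO and 0.22 in SR1848. Pairs of a member called lower with one called higher had a median of 0.04101 and 0.0446. The points share library, depth and scaling, so these r values are descriptions.

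Promoters of respiratory genes are known for sites of NRF1, of the ETS factor GABP (encoded by Gabpa with Gabpb1 or Gabpb2), of YY1 and of SP1. RefSeq promoter windows (GRCm38.p6, 250 bases before to 50 after the start) were on hand for 74 of the 89 tested members that are not copies, and for 27025 genes in all. Each motif was searched as fixed letters on both strands; CCAAT and GGGCGG are short and common, and matches of different motifs may overlap. The ETS letters CCGGAAG were in 19 of 74 member windows (25.7%), in 19.6% of windows of all genes tested and in 9.93% of all windows. Split by call, they were in 15 of 46 windows of lower members, 2 of 12 of higher members and 2 of 16 of those that did not pass. Over all genes tested they were in 26.7% of lower and 14.5% of higher genes. The NRF1 letters GCATGCGC were in 11 of 74 member windows (14.9%, against 6.05% of genes tested and 3.05% of all). By call they were in 7 of 46 windows of lower members and 2 of 12 of higher members. Over all genes tested they were in 6.71% of lower and 5.27% of higher genes. The YY1 letters AAGATGGCG were in 8 (10.8%, against 3.44% and 1.64%). By call these were 7 of 46 windows of lower members, 0 of 12 of higher members and 1 of 16 of those that did not pass. Over all genes tested they were in 4.84% of lower and 2.58% of higher genes. CAAGGTCA, the letters Nr5a2 prefers, were in 4 (5.41%, against 1.39% and 1.76%): Ndufs5, Sdhd, Atp5g3 and Atp5l. GGGCGG was in 33 (44.6%), below the 65.4% of genes tested and above the 38.2% of all windows, and CCAAT also in 33 (44.6%, against 44.3% and 41.1%). By call GGGCGG was in 17 of 46 windows of lower and 6 of 12 of higher members, and CCAAT in 19 of 46 and 6 of 12. A match is a string of letters and no evidence of binding, and its absence says only that these letters are not in the window.

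The 250 bases before the start are shown for the isoform pair that parted (Cox6b1 and Cox6b2), for both members whose groups did not overlap (Ndufaf5 and Atp5pb), for the largest fall (Cox7c) and for the largest rise outside the isoforms of other tissues (Ndufa10). They run 5′ to 3′ along the gene's strand, and capitals mark letters of the 6 motifs, on either strand.
Cox6b1 (chr7:30626115-30626364, minus strand): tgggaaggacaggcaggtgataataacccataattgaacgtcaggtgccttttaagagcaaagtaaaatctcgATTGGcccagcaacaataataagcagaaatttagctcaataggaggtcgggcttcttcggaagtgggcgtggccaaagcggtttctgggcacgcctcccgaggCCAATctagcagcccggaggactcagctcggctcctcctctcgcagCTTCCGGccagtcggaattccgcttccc
Cox6b2 (chr7:4753095-4753344, minus strand): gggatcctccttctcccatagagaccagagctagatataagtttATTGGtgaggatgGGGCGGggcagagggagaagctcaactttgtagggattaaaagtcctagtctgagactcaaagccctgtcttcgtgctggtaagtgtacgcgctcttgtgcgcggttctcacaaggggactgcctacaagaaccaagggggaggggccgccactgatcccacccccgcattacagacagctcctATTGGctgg
Ndufaf5 (chr2:140170396-140170645, plus strand): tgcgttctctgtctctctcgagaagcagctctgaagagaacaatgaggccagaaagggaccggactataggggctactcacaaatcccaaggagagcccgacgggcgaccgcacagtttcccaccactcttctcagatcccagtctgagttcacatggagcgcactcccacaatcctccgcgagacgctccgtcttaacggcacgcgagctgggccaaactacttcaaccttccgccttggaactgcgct
Atp5pb (chr3:105959264-105959513, minus strand): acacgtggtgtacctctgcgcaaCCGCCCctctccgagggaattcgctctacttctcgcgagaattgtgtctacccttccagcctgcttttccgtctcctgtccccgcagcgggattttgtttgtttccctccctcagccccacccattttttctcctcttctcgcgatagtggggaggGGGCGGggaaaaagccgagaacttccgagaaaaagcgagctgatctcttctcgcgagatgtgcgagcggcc
Cox7c (chr13:86046796-86047045, minus strand): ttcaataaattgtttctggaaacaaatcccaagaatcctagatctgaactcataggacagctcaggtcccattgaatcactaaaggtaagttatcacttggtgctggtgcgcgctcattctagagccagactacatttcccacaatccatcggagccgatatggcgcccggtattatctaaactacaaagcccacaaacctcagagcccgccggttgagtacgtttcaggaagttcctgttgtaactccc
Ndufa10 (chr1:92473759-92474008, minus strand): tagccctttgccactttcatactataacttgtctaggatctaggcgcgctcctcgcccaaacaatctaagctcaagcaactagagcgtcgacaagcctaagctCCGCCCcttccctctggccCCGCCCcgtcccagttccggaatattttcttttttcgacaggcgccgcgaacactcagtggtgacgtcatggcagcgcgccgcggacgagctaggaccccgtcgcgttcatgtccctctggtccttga
Cox6b1 has the ETS letters (here CTTCCGG, the other strand) 28 bases before its start and CCAAT letters at 177 and 74 before it. Cox6b2 has no ETS letters in this stretch, CCAAT letters at 206 and 9 before the start, and GGGCGG at 193. Atp5pb has GGGCGG letters at 227 and 71 before the start, and Ndufa10 at 147 and 128. Cox7c holds none of the 6 motifs here, and Ndufaf5 holds none in the stretch shown but has the NRF1 letters further along the window searched. RefSeq starts can differ from those of GENCODE M21: the stretch of Atp5pb lies wholly within that gene's GENCODE span, and that of Cox6b1 partly. Those of Cox7c and Ndufa10, whose GENCODE spans are not printed here, also lie partly within them.

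Genes for the factors that are known to drive respiratory and mitochondrial genes were themselves mostly lower with SR1848: 12 of 16 tested regulators fell and 3 rose (median log2 fold change -1.79). Among all genes tested, 36.5% were lower and 45.6% higher. Gabpb2, a partner subunit of GABP, had a median of 60.8 CPM in DMSO and 3.96 CPM in SR1848 embryos (log2 fold change -3.63, adjusted p = 4.45e-41), with 79 of 80 treated embryos below the DMSO range. Tfb2m, which starts transcription of mitochondrial DNA, ran from 149.8 to 567 CPM in DMSO embryos (median 327) and from 48.4 to 226 CPM in SR1848 embryos (median 106) (log2 fold change -1.59, adjusted p = 1.24e-40). The DNA-binding subunit of GABP, Gabpa, fell further in level (median 698 CPM in DMSO and 49.1 CPM in SR1848 embryos; log2 fold change -3.32, adjusted p = 8.42e-32), and Nrf1 fell 2.43-fold (median 237 CPM in DMSO and 90.9 CPM in SR1848 embryos). The mitochondrial RNA polymerase Polrmt (log2 fold change -2.47, adjusted p = 8.29e-18) and the mitochondrial DNA packaging factor Tfam (log2 fold change -2.199, adjusted p = 2.96e-15) fell too. The nuclear receptor gene Esrrg rose (log2 fold change 0.98, adjusted p = 5.29e-10) with TMM factors, though 0 of the 16 were called higher with oocyte scaling, and the coactivator Ppargc1a had a median of 0 in both groups. The genes named here other than Gabpb2 and Tfb2m were chosen after their values were seen, and of the 3 rises only that of Esrrg is described. Whether these levels bear on the members was not tested.

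Other genes of the pathway were divided, as were all genes tested, of which 36.5% were lower and 45.6% higher. Of 41 tested assembly factors with other names, 22 were lower and 14 higher (median -0.47). Coa7, of complex IV assembly, had a median of 42.1 CPM in DMSO and 5.37 CPM in SR1848 embryos (log2 fold change -2.76, adjusted p = 5.89e-34). Cox10, which makes the heme of complex IV, went the other way, with a median of 132 CPM in DMSO and 435 CPM in SR1848 embryos and 66 of 80 treated embryos above the DMSO range (log2 fold change 1.66, adjusted p = 2.00e-33). Of 20 electron carriers and entry points 11 were lower and 6 higher (median -0.83). They include Coq4, of ubiquinone synthesis, which ran from 37.2 to 255 CPM in DMSO embryos (median 107) and from 0.458 to 41.6 CPM in SR1848 embryos (median 8.88) (log2 fold change -3.38, adjusted p = 5.60e-36), and Coq3, the methyltransferase of that pathway (median 27.7 CPM in DMSO and 5.22 CPM in SR1848 embryos; log2 fold change -2.38, adjusted p = 6.20e-21). Cyc1, the cytochrome c1 subunit of complex III, fell like most of that complex (median 33.7 CPM in DMSO and 12.5 CPM in SR1848 embryos; log2 fold change -1.504, adjusted p = 1.10e-19). Of 9 genes of ATP export and coupling 4 were lower and 2 higher. The 2 were Vdac2 (log2 fold change 1.09, adjusted p = 1.08e-14) and Vdac3 (log2 fold change 1.13, adjusted p = 1.33e-17), channels of the outer membrane, and 0 of the 9 were called higher with oocyte scaling. The citric acid cycle list had 7 of 18 lower and 7 higher, shares near those of all genes tested. Its median of 0.06 turned negative with RLE factors, total-count and oocyte scaling. Mdh2, the malate dehydrogenase of mitochondria, ran from 209 to 762 CPM in DMSO embryos (median 486) and from 15.3 to 198 CPM in SR1848 embryos (median 57.3), so its groups did not overlap (log2 fold change -2.95, adjusted p = 1.12e-55). Idh3g, a regulatory subunit of isocitrate dehydrogenase, fell as well (median 83.4 CPM in DMSO and 8.42 CPM in SR1848 embryos; log2 fold change -3.03, adjusted p = 3.51e-34). Coq4, Coa7 and the other genes named in this paragraph are the 2 with the smallest p of each list, with Cyc1 chosen after its values were seen.

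**Figure D5:**
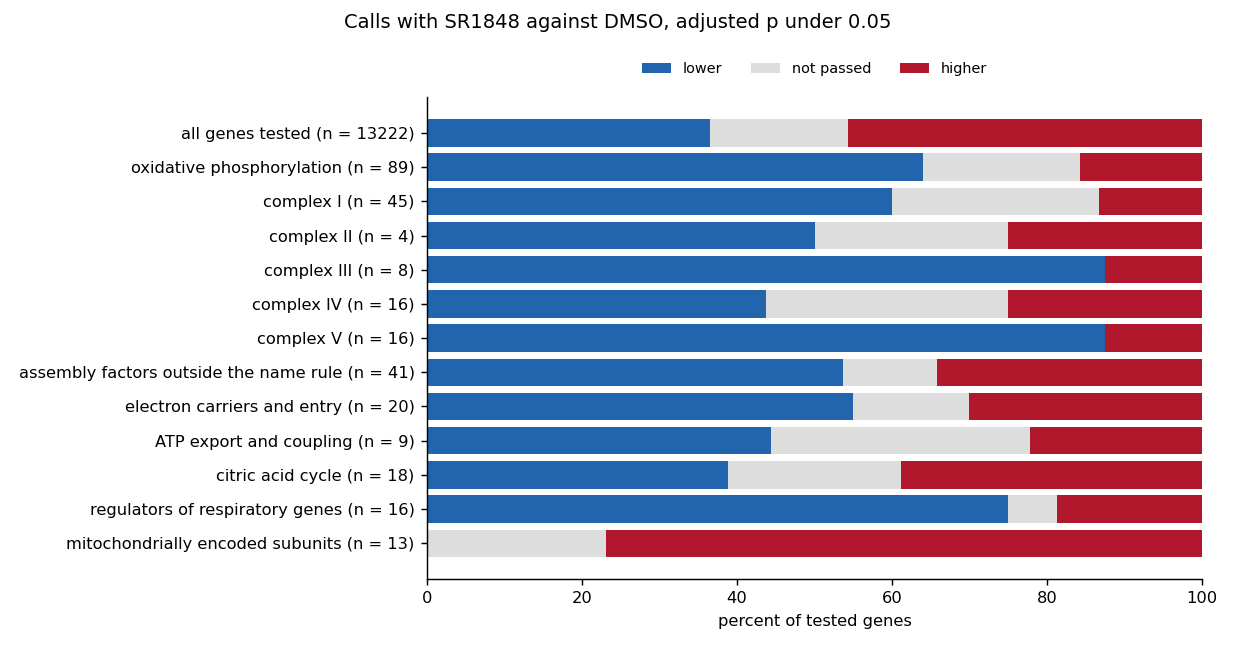
Percentage of tested genes called lower (blue), higher (red) or not passed (grey) with SR1848 against DMSO, for all genes, the members by complex (copies left out) and the other lists of the pathway, with the number tested. Blue covers 7 of 8 genes in complex III, 14 of 16 in complex V, 27 of 45 in complex I and 12 of 16 regulators, and the mitochondrially encoded subunits have no blue, but with oocyte scaling 10 of the 13 are lower.

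For the subunits encoded by mitochondrial DNA the direction depended on the scaling. Of 13, 0 were lower and 10 were higher with TMM factors (median log2 fold change 0.43), where 45.6% of all genes were higher. Scaling to oocyte transcripts gave 10 lower and 1 higher (median -0.42), where 6982 of all 13222 genes were lower. The number higher also varied elsewhere, with 0 lower: 1 among embryos numbered above 40, 3 with total-count scaling and 5 with a depth covariate. It was 7 with RLE factors, DESeq2 or limma-voom, and 13 with upper-quartile factors. mt-Atp6, of the proton channel of complex V, had the largest difference (median 1728 CPM in DMSO and 3351 CPM in SR1848 embryos; log2 fold change 1.53, adjusted p = 8.53e-13), and mt-Nd6, of complex I, the next smallest p (log2 fold change 0.55, adjusted p = 9.17e-04). The ratio of mitochondrially encoded to nuclear members within an embryo needs no scaling between embryos. It was 2.18 to 25.9 (median 7.43) in DMSO and 2.42 to 50.6 (median 12.1) in SR1848 embryos, with 58 of 80 treated embryos above the DMSO median and 7 above the DMSO range.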

How the data were processed

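Kallisto 0.46.1 and Trim Galore 0.6.2 are named, with the builds mm10 and hg19 but no roles, per the submitters' processing notes. The authors deposited estimated counts per transcript for each embryo, and a table of their own comparison with log2 fold changes and p-values per transcript. Here counts were summed per gene, with transcripts assigned by the authors' table or by GENCODE M21. Transcripts without a gene held 0.741% of counts, and 5 entries that are not mouse transcripts held 0.0258%. Both were left out.

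The 91 members were tested within a fit of 13222 genes that passed filterByExpr (edgeR 4.0.16, R 4.3.3, TMM factors, robust quasi-likelihood fit on sums rounded to whole counts, no covariates), with Benjamini-Hochberg adjustment and a threshold of 0.05. Standard errors are the log2 fold change divided by the square root of F. CPM values use the TMM-scaled library sizes. TPM values divide transcript counts by GENCODE M21 lengths and serve to compare genes. The script was tested on simulated data. Alternatives were other scalings, filters, covariates, subsets of embryos, a replicate block, limma-voom (limma 3.58.1) and DESeq2 1.42.0.

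The members and lists were chosen with earlier results of these data known. Genes were named by rule: in each role group the most abundant member, the 3 largest falls and 2 largest rises among called members with a mean of at least 20 CPM. Also named were every member called higher, isoform pairs, members whose groups do not overlap, members of at least 100 CPM that did not pass, and the 2 smallest p of each other list. Coordinates in the deposited table differ from mm10 for 111 of 114 members, so positions are those of GENCODE M21 (mm10). The values of 1 member are not reported here, though it is part of the counts.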

Additional observations from a re-analysis of the deposited data

How the results depend on the processing

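In all 14 other settings of the gene fit the members' median stayed negative and more members were lower than higher. Of the 58 members called lower, 50 kept the call in every setting that tested them, and of the 14 called higher 5 did (Cox6a2, Cox7a1, Ndufa10, Ndufab1 and Uqcrq). The number called higher was 9 with total-count scaling, 9 among embryos numbered above 40, and 5 with scaling to oocyte transcripts, where the median was -1.81. Without a filter 113 members were tested and the median was -0.53, with 17 of the 22 added members being copies. Transcripts tested singly gave 90 lower and 43 higher of 180. Among the genes named by rule, signs turned with oocyte scaling for Atp5b (-0.36), Atp5l (-0.52), Cox6a1 (-0.63), Cox6b2 (-0.59), Cox7a2l (-0.80), Cox8a (-0.086), Ndufa7 (-0.28), Ndufb5 (-0.54), Ndufv2 (-0.25) and Sdha (-0.028). Their other sign changes were in genes that did not pass. With upper-quartile factors they were Cox5b (0.15), Cox7b (0.20), Ndufa4 (0.10) and Ndufb11 (0.20), and with a mean of at least 5 CPM Cox5b (0.00095), Cox7b (0.044) and Ndufb11 (0.046). Cox6a1 was -0.076 with RLE factors, -0.13 with total-count scaling, -0.076 with DESeq2 and -0.041 among embryos numbered up to 40, where Cox7b was 0.0085. Among embryos numbered above 40 Cox5b was 0.35, Cox7b 0.11 and Ndufb11 0.17. With detected genes as a covariate Cox7b was 0.21 and Ndufb11 0.081. The cause of these shifts was not tested.

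Both groups number their embryos from 1, but the 50 shared numbers did not pair them: same-numbered embryos had a median correlation of deviations of 0.02 (lowest -0.23), other pairs 0.0002, and 3 pairs exceeded 0.1. With the number as a replicate block 57 members were lower and 14 higher, the median was -0.93, and Cox7b (0.21) and Ndufb11 (0.16) changed sign. Only 1 embryo correlated best with its own number.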
